A study of Mus musculus with 15 samples.

Results

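Cytochrome P450 enzymes of families 1 to 4 oxidise drugs, pollutants, fatty acids and steroids, and the liver's hepatocytes hold most of this capacity. The genes described here are the mouse protein-coding genes of those families, without Cyp1a2 and Cyp2e1, that had at least 1 accessible region of the deposited ATAC-seq matrix assigned to them. Of 72 gene symbols that fit this naming pattern, 46 had a region, among 16619 of 21883 protein-coding genes that did. The 46 genes held 146 of the 93217 regions, 62 of them inside a gene body and 84 outside one but within 50 kb of it. The remaining 26 symbols had no region and have no value here; 11 of them lie in the Cyp2c cluster, and the others in the Cyp2a, Cyp2b, Cyp2d, Cyp2j, Cyp3a, Cyp4a and Cyp4f groups.

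Most P450 enzymes of these families sit in the membrane of the endoplasmic reticulum and receive electrons from P450 oxidoreductase, encoded by Por, and from cytochrome b5. Foreign compounds raise the transcription of family 1 through the receptor Ahr, of Cyp2b genes chiefly through the receptor CAR (gene Nr1i3) and of Cyp3a genes chiefly through PXR (gene Nr1i2), while HNF4A and C/EBP factors maintain the hepatocyte programme. Bile duct cells form the lining of the ducts and are known for transport and barrier functions. ATAC-seq measures where a transposase can cut chromatin, so the values below describe open chromatin at a gene and not its transcript level.

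The libraries came from mouse liver, 15 in all, with 3 per group. Untreated mice gave hepatocytes and biliary cells, and mice given DDC gave hepatocytes, biliary cells and reprogrammed hepatocytes. DDC is diethoxycarbonyl-dihydrocollidine, a diet additive that injures bile ducts. Per the labels, the cells went from the liver to the sorter with no culture step and had no treatment afterwards. The sources used here do not give strain, sex, age, DDC dose and duration or the sort markers, nor the feature that set reprogrammed cells apart. Whether the 3 libraries of a group came from separate animals is not stated either, so the p-values cover library-to-library spread, part or all of which may be technical.

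Levels are nuclear RPM, the reads of a gene's regions per 1000000 reads in regions outside the mitochondrial genome. Untreated hepatocytes had 76.62 ± 11.71% (SD, n = 3) of their region reads on the mitochondrial genome, and reprogrammed cells had 9.24 ± 5.14%. Nuclear reads ranged from 201705 to 605309 per library in untreated hepatocytes, from 1191409 to 2342643 in DDC hepatocytes and from 2439831 to 10395918 in the other groups. A single read was worth 1.652 to 4.958 nuclear RPM in an untreated hepatocyte library, so a member with few reads could not be measured there: 4 of the 46 had no read in that group, which allows up to 2.88 nuclear RPM (3 reads over the group, counting error only), and 15 had none in at least 1 of its libraries. Cyp2a5 had 7 reads in all and fell below the filter of a mean of 1 nuclear RPM, and the other 45 genes were tested. Markers matched the labels: the 7 hepatocyte markers with a region summed to 2656.8 to 3933.5 nuclear RPM in untreated hepatocytes and 2108.4 to 2730.4 in DDC hepatocytes, against 561.2 to 826.4 in reprogrammed cells, 378.1 to 598.7 in DDC biliary cells and 492.3 to 909.4 in untreated biliary cells. The 8 biliary markers ran the other way, from 278.7 to 485.9 over both hepatocyte groups to 914.0 to 1083.6 in reprogrammed cells and 1152.4 to 1559.8 over both biliary groups. No marker of either list was without reads in any group.

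Promoters of 6 members are shown because an accessible region covers each of them and because they behaved differently from one another. The first 2, of the phenobarbital-inducible gene Cyp2b10 and of the Cyp2d gene with the highest level, Cyp2d10, lay in regions that were more open in untreated hepatocytes than in untreated biliary cells; Cyp2s1, a P450 of barrier epithelia, had a promoter region that was more open in biliary cells; Cyp3a11 encodes the main Cyp3a enzyme of mouse liver; Cyp3a13 had a promoter region that was more open after DDC; and Cyp4v3, a fatty acid hydroxylase gene, had a promoter region with no called difference. Each run holds the 250 bases before the RefSeq start on the gene's own strand (build GRCm38.p6, the series' mm10), 5′ to 3′, and capitals mark matches on either strand: to the HNF4A motif CAAAGTCCA, to the C/EBP motif TTGCNNAA, to the Ahr response element GCGTG, to the motif TGANTCA that AP-1 binds, or to the TATA box, searched as TATAAA.
Cyp2b10 promoter (chr7:25897408-25897657, plus strand): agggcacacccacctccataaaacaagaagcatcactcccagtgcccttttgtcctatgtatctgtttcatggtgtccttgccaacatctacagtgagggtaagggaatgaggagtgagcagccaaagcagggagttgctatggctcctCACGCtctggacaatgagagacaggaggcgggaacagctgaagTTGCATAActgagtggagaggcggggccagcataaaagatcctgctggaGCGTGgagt
Cyp2d10 promoter (chr15:82407195-82407444, minus strand): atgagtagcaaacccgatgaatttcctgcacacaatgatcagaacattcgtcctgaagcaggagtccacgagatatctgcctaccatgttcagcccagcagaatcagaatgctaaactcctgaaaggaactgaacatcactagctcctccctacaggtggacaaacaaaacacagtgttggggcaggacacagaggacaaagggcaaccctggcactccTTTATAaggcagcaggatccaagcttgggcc
Cyp2s1 promoter (chr7:25816526-25816775, minus strand): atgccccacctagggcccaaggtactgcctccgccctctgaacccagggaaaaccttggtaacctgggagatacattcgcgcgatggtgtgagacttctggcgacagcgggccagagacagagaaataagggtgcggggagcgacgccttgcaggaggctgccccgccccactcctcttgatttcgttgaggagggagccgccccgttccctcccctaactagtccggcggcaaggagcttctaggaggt
Cyp3a11 promoter (chr5:145879855-145880104, minus strand): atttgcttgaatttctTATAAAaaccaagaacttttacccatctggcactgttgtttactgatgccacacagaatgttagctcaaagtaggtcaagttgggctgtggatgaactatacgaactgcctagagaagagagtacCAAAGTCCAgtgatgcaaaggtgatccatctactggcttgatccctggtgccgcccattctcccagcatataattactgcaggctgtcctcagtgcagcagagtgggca
Cyp3a13 promoter (chr5:137921620-137921869, minus strand): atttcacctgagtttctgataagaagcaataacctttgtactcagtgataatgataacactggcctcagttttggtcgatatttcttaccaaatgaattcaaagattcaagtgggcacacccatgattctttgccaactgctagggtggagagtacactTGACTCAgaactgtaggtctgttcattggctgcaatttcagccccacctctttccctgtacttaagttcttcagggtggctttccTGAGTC
Cyp4v3 promoter (chr8:45333164-45333413, minus strand): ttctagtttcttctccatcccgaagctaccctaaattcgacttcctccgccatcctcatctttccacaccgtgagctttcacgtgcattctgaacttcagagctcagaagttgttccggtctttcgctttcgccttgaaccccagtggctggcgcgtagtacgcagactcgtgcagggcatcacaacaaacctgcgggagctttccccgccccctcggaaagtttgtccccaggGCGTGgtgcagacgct
The Cyp2b10 run holds a C/EBP match that starts 58 bases before the start and Ahr element matches 101 and 9 bases before it, and the Cyp2d10 run a TATA box match 31 bases before it. Cyp3a11 has the HNF4A match 109 bases and a TATA box match 234 bases before the start, Cyp3a13 has AP-1 matches 91 and 6 bases before it (the last letter of the nearer one lies past the end of the run), and Cyp4v3 has an Ahr element match 16 bases before it. The Cyp2s1 run has none of the 5. The runs also differ in CpG content, with 17 CpG in that of Cyp4v3 and 15 in that of Cyp2s1 but 1 to 4 in the other 4.

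Summed over the 46 genes, both hepatocyte groups stood above the 3 other groups in every library. The sum was 1130.4, 1668.6 and 1132.6 nuclear RPM in untreated hepatocytes and 1355.7, 1478.7 and 992.9 in DDC hepatocytes. It was 698.6, 635.2 and 752.2 in reprogrammed cells, 636.0, 766.6 and 681.4 in DDC biliary cells and 781.0, 599.6 and 555.4 in untreated biliary cells. Most of the gap came from a few subfamilies. The Cyp2d genes, among them the mouse relatives of human CYP2D6, summed to between 200.6 and 558.4 in the 6 hepatocyte libraries and to between 55.4 and 139.4 in the 9 others. Cyp2r1, Cyp2u1 and Cyp2w1 together lay between 127.7 and 186.7 against 47.1 to 80.1, again with no overlap, and the Cyp4f and Cyp4v genes, hydroxylases of fatty acids and leukotrienes, between 221.6 and 327.8 against 144.3 to 209.3. Family 1 did not follow that order: reprogrammed cells had the highest mean (range 53.4 to 85.9, overlapping all groups but untreated biliary cells) and untreated biliary cells the lowest (24.6 to 33.6). Cyp2a, 2b, 2f, 2g, 2s and 2t genes overlapped between all groups except that DDC hepatocytes (155.3 to 198.1) lay above reprogrammed cells (83.2 to 141.7), as did DDC biliary cells (155.1 to 172.2), and that DDC hepatocytes and DDC biliary cells lay above untreated biliary cells (107.8 to 137.9). In bulk libraries such as these, fewer cells of a type and less signal per cell cannot be told apart. In 5 of 5 groups the library with the highest hepatocyte marker sum was also the one with the highest P450 sum; the part of these markers in the results below was not tested.

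**Figure D1:**
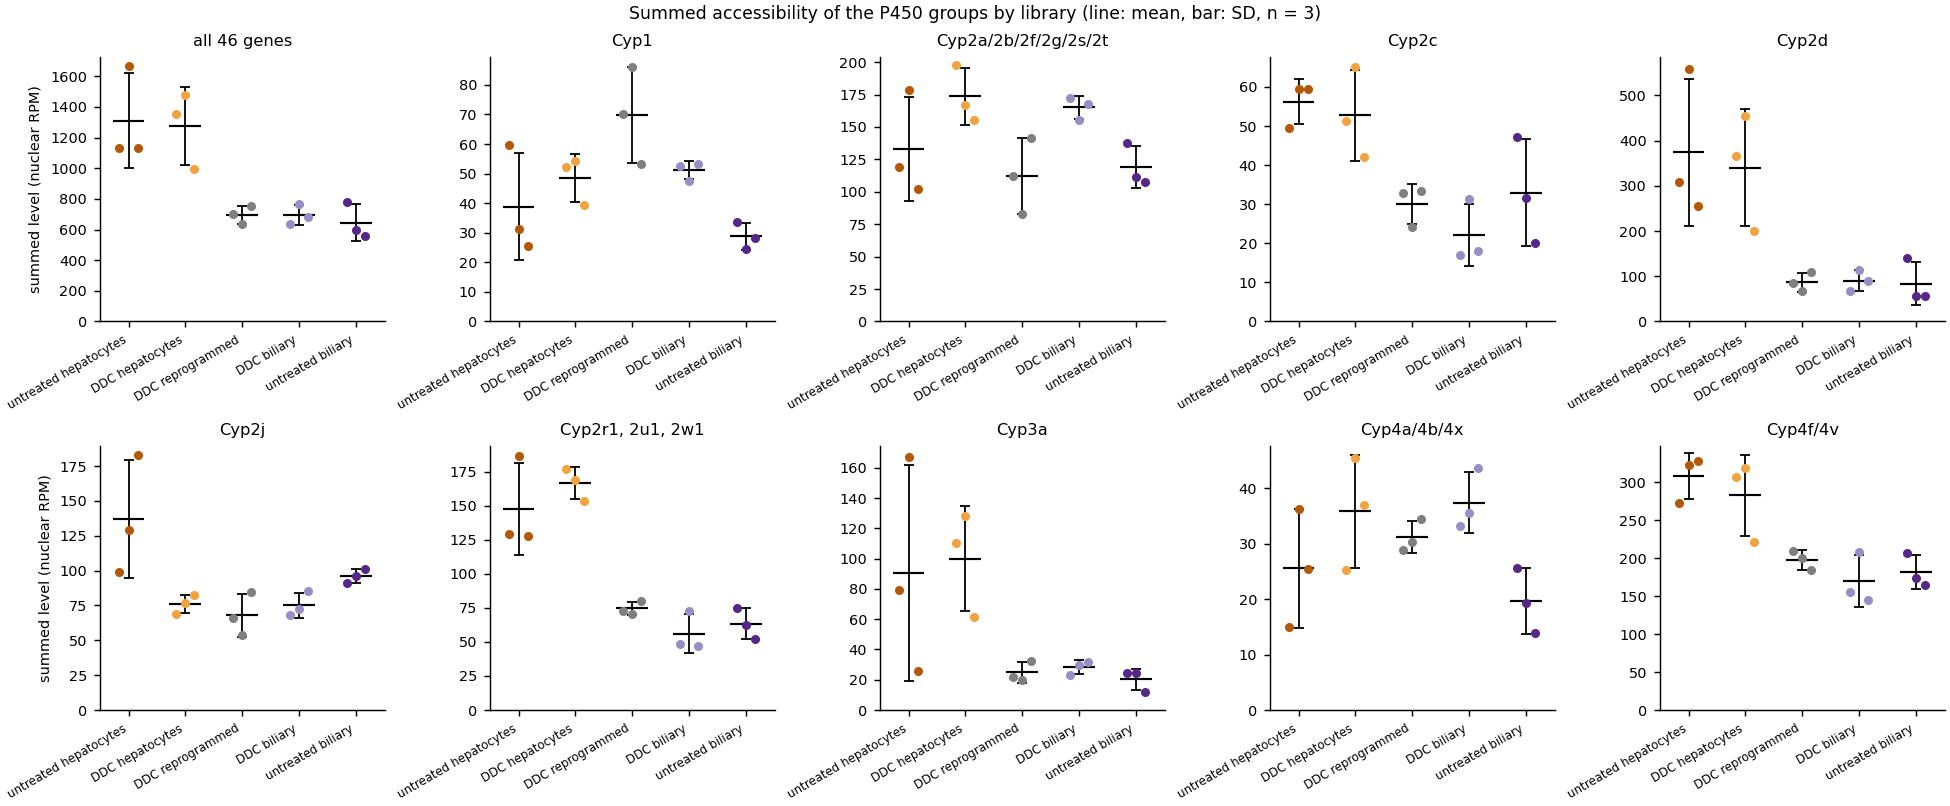
Summed accessibility (y axis, nuclear RPM) of all 46 genes and of 9 subfamily groups in each of the 15 libraries (points; line, mean; bar, SD, n = 3), with the 5 cell groups on the x axis. Both hepatocyte groups lie above the others for all 46 genes together, for Cyp2d and for Cyp2r1, 2u1 and 2w1, whereas Cyp1 is highest in reprogrammed cells.

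Untreated biliary cells against untreated hepatocytes shows how the 2 cell types differ without injury. Of the 45 genes tested, 17 were lower in biliary cells and 4 higher by limma (adjusted p under 0.05), while 13.5% of all 16267 genes tested were lower and 25.4% higher. The median log2 change was -0.60 for the members and 0.32 for all genes. Lower genes came from 8 of the 9 subfamily groups: 5 of 7 Cyp2d genes, all 3 of Cyp2r1, Cyp2u1 and Cyp2w1, 3 of 9 Cyp4f and Cyp4v genes, 2 of 3 Cyp3a genes, and 1 gene each of family 1, Cyp2c, Cyp2j and the Cyp2a to 2t group. None of the 4 Cyp4a, Cyp4b1 and Cyp4x1 genes passed.

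Cyp2d10 had 119.0, 127.2 and 102.2 nuclear RPM in untreated hepatocytes and 38.2, 14.3 and 11.2 in untreated biliary cells. All 3 hepatocyte libraries lay well above the biliary ones, and the log2 change was -2.59 ± 0.45 (SE, adjusted p = 0.000414). Its neighbour Cyp2d9, a steroid hydroxylase gene of male liver, had 69.4, 165.2 and 55.4 against 22.3, 3.28 and 3.42, the largest fall among the members (-3.52 ± 0.72, adjusted p = 0.00155). In both genes biliary library 1 was the highest of its group, and that library also had the highest hepatocyte marker sum of the group (909.4, against 520.5 and 492.3). Cyp2d34, Cyp2d40 and Cyp2d11 fell as well, whereas Cyp2d22 (-0.61 ± 0.27, adjusted p = 0.0792) and Cyp2d26 (-1.15 ± 1.09, adjusted p = 0.421) did not pass.

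Cyp2u1, a long-chain fatty acid hydroxylase gene, showed the steadiest difference: 69.4, 95.8 and 72.4 in hepatocytes against 32.1, 27.5 and 29.4 in biliary cells, with no overlap (-1.38 ± 0.21, adjusted p = 0.000175). Cyp2c70, whose enzyme makes the muricholic acids of mouse bile, had 9.92, 18.2 and 29.8 against 1.51, 0.82 and 2.05 (-2.95 ± 0.49, adjusted p = 0.00033). The hepatocyte values of that gene rest on few reads, yet none reached down to the biliary range. Cyp4v3 had 49.6, 95.8 and 132.0 against 28.3, 21.3 and 27.3 (-1.71 ± 0.32, adjusted p = 0.000731), and Cyp1a1, the pollutant-inducible target of Ahr, 39.7, 23.1 and 8.52 against 6.42, 2.46 and 3.42 (-2.12 ± 0.51, adjusted p = 0.00421). Hepatocytes were higher in every library for both, though untreated hepatocyte library 3 came close to the biliary range for Cyp1a1. Cyp3a25 had 14.9, 6.61 and 8.52 against 1.89, 0.0 and 0.456 (-2.70 ± 0.55, adjusted p = 0.00143), from a region 11.7 kb outside the gene. Cyp2f2, which bioactivates naphthalene and is best known from lung, had 29.7, 49.6 and 34.1 against 12.8, 2.87 and 7.52 (-2.30 ± 0.48, adjusted p = 0.00162).

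Cyp3a11 had 54.5, 153.6 and 8.52 in hepatocytes and 12.8, 9.02 and 3.64 in biliary cells, so that the groups overlapped through hepatocyte library 3. It passed (-2.33 ± 0.77, adjusted p = 0.0253) but not without hepatocyte library 2 (-1.41) or without biliary library 2 or 3 (adjusted p up to 0.113). Of the 21 calls in this comparison, 13 passed in each of the 6 fits that left out 1 library, and all 21 kept their direction. Such fits reuse nearly all libraries that gave the calls, so a kept direction is little support here and below. Without biliary library 2 the number of calls was 13.

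The 4 genes called higher in biliary cells were Cyp2s1, Cyp2c65, Cyp2j12 and Cyp2t4. Cyp2s1 had 58.2, 50 and 54.7 nuclear RPM in biliary cells and 29.7, 39.6 and 25.5 in hepatocytes (0.78 ± 0.22, adjusted p = 0.0111). Cyp2c65 had 38 reads in biliary cells and none in hepatocytes, which puts it at least 1.39-fold higher against the limit of 3 reads over that group. It averaged 4.25 nuclear RPM in untreated biliary cells and 1.58 over all libraries, not far above the filter of 1. That gene thus entered the test mainly through the group in which it was called higher. Cyp2j12 had 23 reads and none, with a biliary level under that limit, so no fold can be given. Cyp2t4 had 43 reads against 2, a ratio of 2.36 with a 95% counting interval of 0.616 to 20.1. In an edgeR quasi-likelihood fit of the recovered reads, 16 members were lower and 0 higher, 15 of them shared with limma, so that none of the 4 rises held there; among all genes edgeR called 15.1% lower and 14.4% higher. On the scale as deposited, with mitochondrial reads in the total, 22 members were higher and 3 lower, 7 of the limma calls being shared, but 85.8% of all genes were higher on that scale and 0.985% lower. With only the 2 groups in the fit 9 calls were made (all genes: 10% higher and 7.21% lower). With all libraries thinned to 201705 nuclear reads and only those groups in the fit, 4 were (Cyp2c70, Cyp2d10, Cyp2u1 and Cyp3a25, all lower), beside 2.39% higher and 1.86% lower of all genes.

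**Figure D2:**
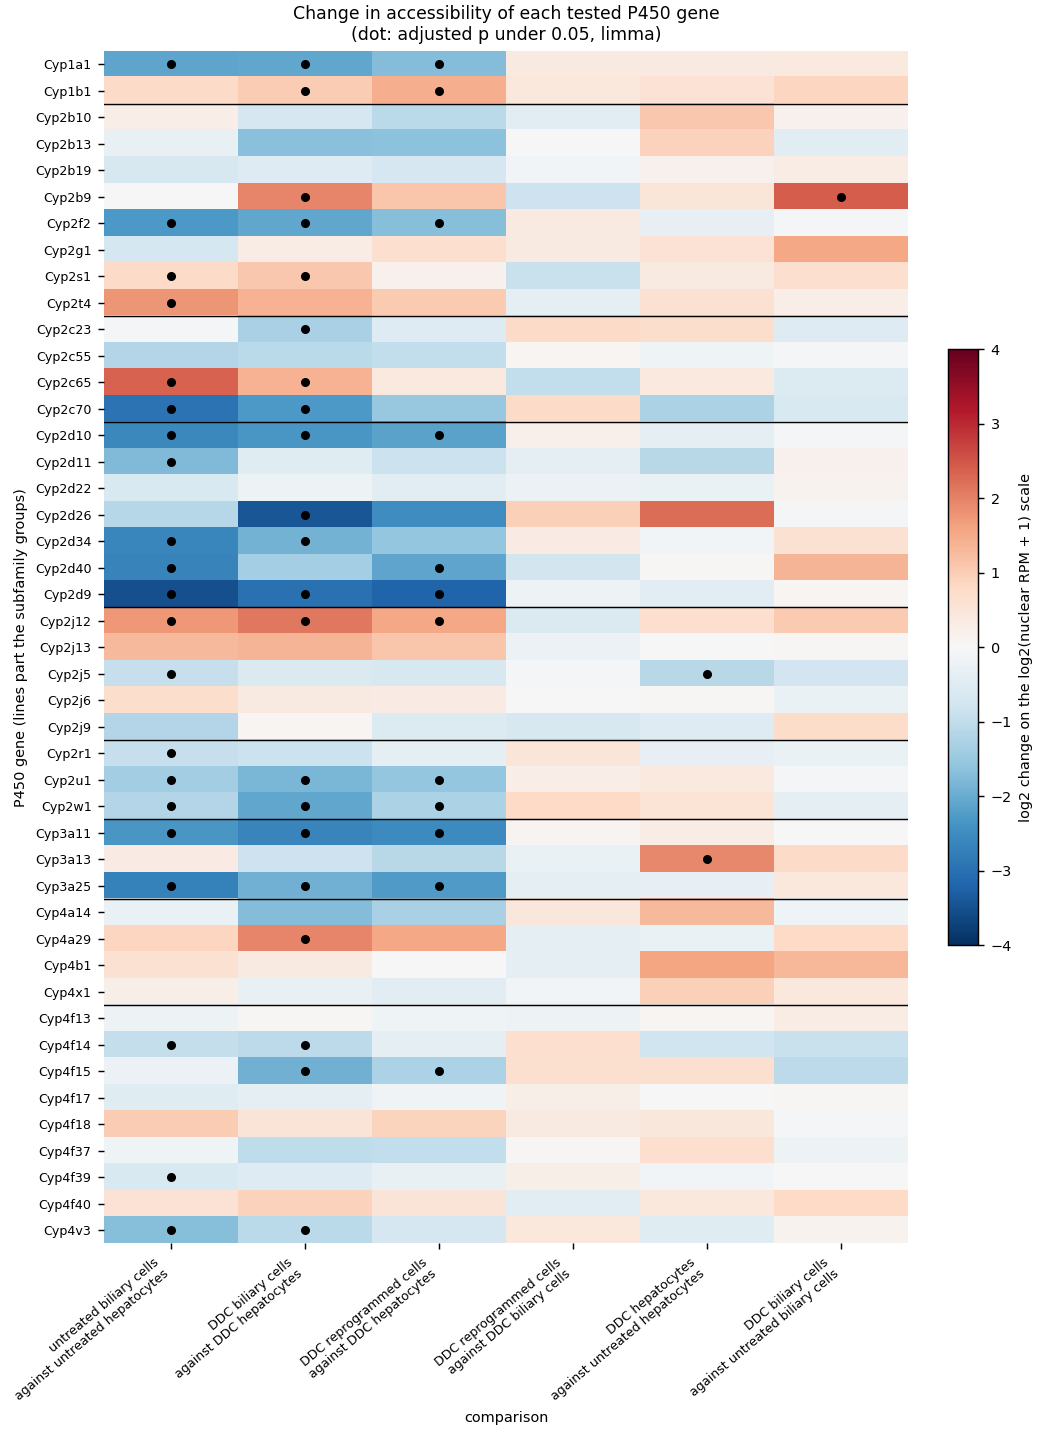
Change of each of the 45 tested P450 genes (y axis, ordered by subfamily group) in the 6 comparisons (x axis), coloured by log2 change on the log2(nuclear RPM + 1) scale, with a dot where the adjusted p was under 0.05 (limma). The 3 columns that set non-hepatocyte groups against hepatocytes each hold more dots on blue than on red genes, and the column of reprogrammed against DDC biliary cells has no dot.

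Reprogrammed cells against DDC hepatocytes is the comparison that bears on the change of identity during injury. In reprogrammed cells 10 of the 45 genes were lower and 2 higher, beside 6.42% lower and 7.8% higher among all genes tested. The members' median log2 change was -0.64, and that of all genes 0.12. Falls covered 3 of 7 Cyp2d genes, 2 of 3 Cyp3a genes, Cyp2u1 and Cyp2w1, and 1 gene each of family 1, Cyp4f and the Cyp2a to 2t group.

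Cyp2u1 had 112.7, 99.1 and 95.7 nuclear RPM in DDC hepatocytes and 37.0, 28.4 and 38.5 in reprogrammed cells. Each hepatocyte library was more than 2-fold above each reprogrammed one, and the log2 change was -1.55 ± 0.21 (adjusted p = 0.000365). Cyp2d10 had 99.9, 140.8 and 52.9 against 17.2, 17.8 and 26.1 (-2.13 ± 0.45, adjusted p = 0.00534). Cyp2d9 had 70.9, 128.8 and 27.7 against 9.1, 3.26 and 6.94 (-3.21 ± 0.72, adjusted p = 0.00847), a call that did not hold without DDC hepatocyte library 2 (adjusted p = 0.0532). DDC hepatocyte library 3 was the lowest of its group for both Cyp2d genes and still exceeded every reprogrammed library. Cyp3a11 had 69.6, 77.1 and 26 against 6.69, 7.32 and 10.9 (-2.54 ± 0.77, adjusted p = 0.0374) and Cyp3a25 7.68, 13.9 and 3.36 against 1.21, 0.61 and 0.42 (-2.27 ± 0.55, adjusted p = 0.0124), in neither case with overlap.

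Cyp1a1 had 26.9, 34.5 and 18.5 in DDC hepatocytes and 6.25, 6.92 and 7.99 in reprogrammed cells (-1.74 ± 0.51, adjusted p = 0.032). The other gene of its family went the opposite way. Cyp1b1, which hydroxylates polycyclic hydrocarbons and oestradiol and is mostly active outside the liver, had 25.2, 19.6 and 21 in DDC hepatocytes and 64.0, 78.9 and 45.4 in reprogrammed cells (1.45 ± 0.31, adjusted p = 0.0063), with no overlap. Cyp2f2 had 21.8, 41.7 and 27.7 against 8.33, 5.7 and 11.8 (-1.71 ± 0.48, adjusted p = 0.0257). Cyp4f15, an omega-hydroxylase gene, was near-constant within groups at 55.5, 56.0 and 54.6 against 22.4, 20.8 and 23.5 (-1.28 ± 0.36, adjusted p = 0.0281). In untreated hepatocytes, which share the fit's estimate of spread, that gene had 49.6, 51.2 and 17. Cyp2d40 (-2.10 ± 0.61) and Cyp2w1 (-1.26 ± 0.40) also fell. Cyp2j12 rose from 3 reads in DDC hepatocytes to 84 in reprogrammed cells, a ratio of 6.64 (95% counting interval 2.2 to 32.8), in a region 10.2 kb outside the gene.

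Several members that did not pass had separate groups nonetheless. Cyp2d26 had 85.8, 67.0 and 46.2 against 12.2, 5.9 and 17 (-2.47 ± 1.09, adjusted p = 0.151), and Cyp2b10 78.1, 67.5 and 47.8 against 28.1, 21.3 and 41.6 (-1.09 ± 0.40, adjusted p = 0.0821). A fit without untreated hepatocytes called 21 members, 3 higher and 18 lower, among them Cyp2b10, Cyp2d26, Cyp2d34, Cyp2c70, Cyp3a13 and Cyp4v3, where 21.7% of all genes were higher and 13.4% lower. edgeR called 23, 2 higher and 21 lower, with all 12 limma calls included (15% and 15.3% of all genes). Leaving out DDC hepatocyte library 1 or 2 cut the number of calls to 6 or 3. Leaving out reprogrammed library 1, 2 or 3 cut it to 5, 5 or 7. Cyp2u1, Cyp2d10 and Cyp1b1 passed in all 6 fits without 1 library, Cyp2d9 in 5 and Cyp3a25 in 4. Cyp2d40, Cyp2f2 and Cyp2j12 passed in only 2 of them, Cyp1a1 and Cyp3a11 in only 1, and Cyp2w1 and Cyp4f15 in none. All 12 kept their direction. On the deposited scale the split was 7 higher and 7 lower, against 22.1% and 2.64% of all genes. Only Cyp2u1 passed after thinning with these groups alone in the fit, and with only regions within 1 kb of a gene end, which 28 members had at a testable level, only Cyp2b10 did (-2.32 ± 0.50, adjusted p = 0.0177).

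**Figure D3:**
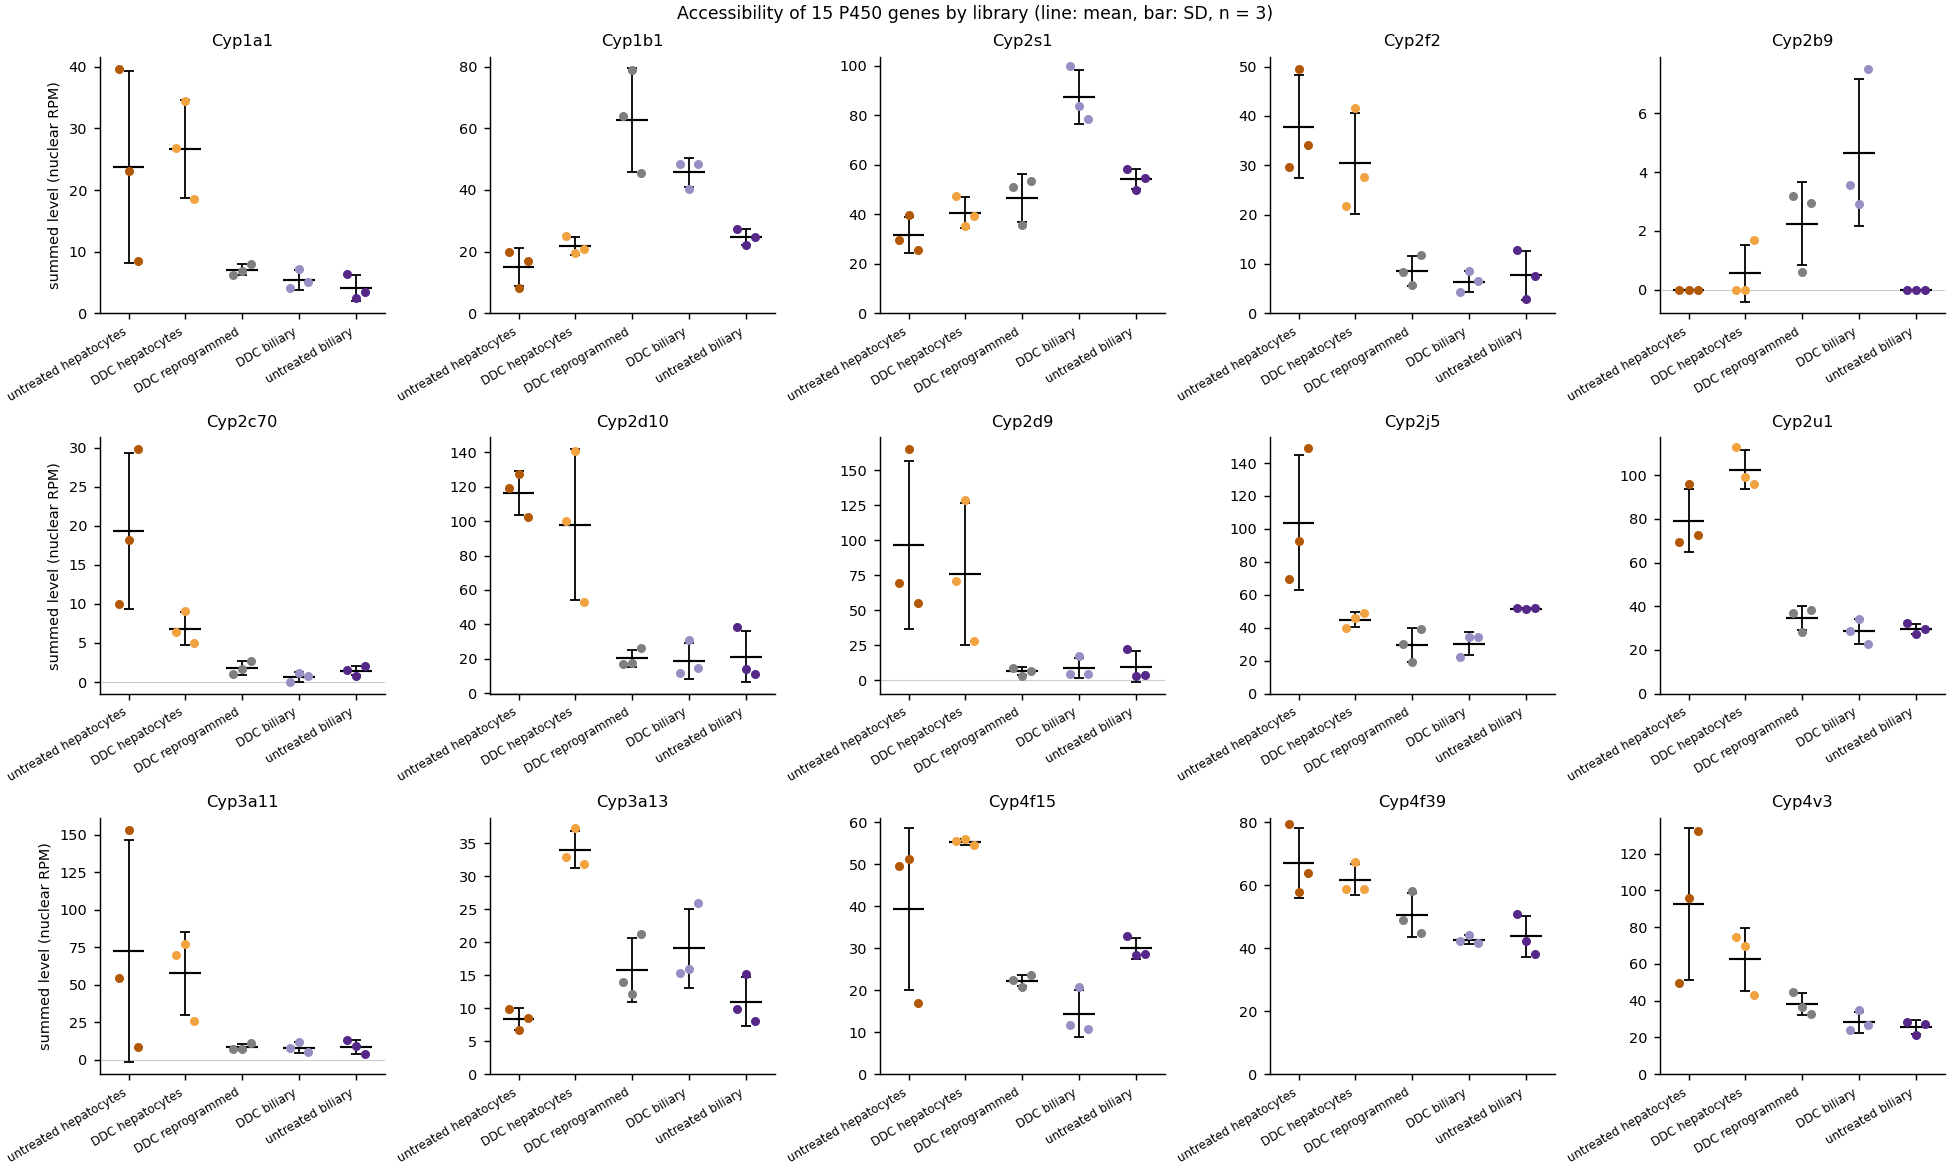
Accessibility (y axis, nuclear RPM) of 15 P450 genes in each of the 15 libraries (points; line, mean; bar, SD, n = 3), with the 5 cell groups on the x axis. Cyp2d10, Cyp2d9, Cyp2u1 and Cyp3a11 are low in reprogrammed and both biliary groups, Cyp1b1 is highest in reprogrammed cells, Cyp2s1 is highest in DDC biliary cells and Cyp3a13 in DDC hepatocytes.

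The untreated pair and the pair of reprogrammed cells and DDC hepatocytes have no library in common, but both share the fit's estimate of each gene's spread. A gene with a small spread passes more readily in both, so some overlap of calls is built in. The overlap among members is therefore given only beside that of all genes. Of the 10 members lower in reprogrammed cells, 9 (90%) were also lower in untreated biliary cells, where they made up 52.9% of the 17 called lower: Cyp1a1, Cyp2d10, Cyp2d40, Cyp2d9, Cyp2f2, Cyp2u1, Cyp2w1, Cyp3a11 and Cyp3a25. Over all genes the same shares were 82.7% of 1045 and 39.2% of 2204. Cyp4f15 was the exception, with 32.9, 28.3 and 28.7 nuclear RPM in untreated biliary cells and a log2 change against untreated hepatocytes that did not pass. Among rises, Cyp2j12 was the 1 gene shared, 50% of the 2 members higher in reprogrammed cells and 25% of the 4 in untreated biliary cells. Over all genes these shares were 65.1% of 1269 and 20% of 4137. Cyp2j12 had no read in untreated hepatocytes and 3 reads in DDC hepatocytes, and edgeR did not call its rise in untreated biliary cells.

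**Figure D4:**
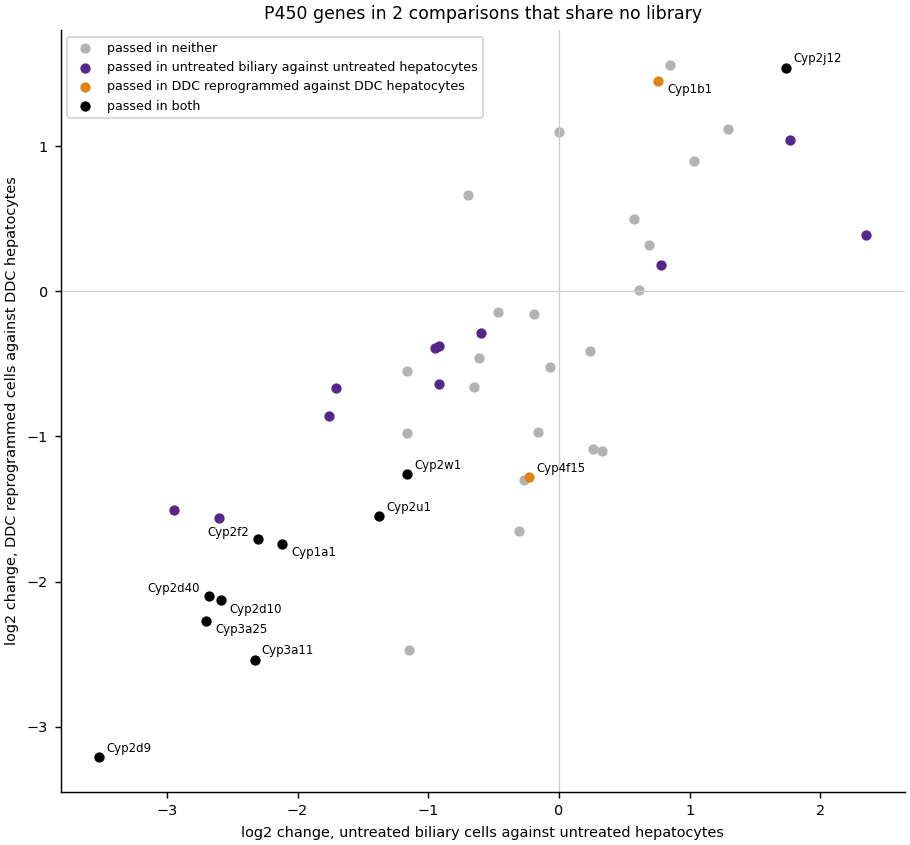
Log2 change of each tested P450 gene in untreated biliary cells against untreated hepatocytes (x axis) and in reprogrammed cells against DDC hepatocytes (y axis), on the log2(nuclear RPM + 1) scale; colours show in which comparison a gene passed. The 9 genes that fell in both comparisons lie at the lower left, and Cyp2j12 at the upper right.

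DDC biliary cells against DDC hepatocytes gave the most member calls among the DDC groups, 15 lower and 6 higher of 45, where 11.8% of all genes were lower and 12.7% higher. The members' median was -0.66 and that of all genes 0.07. This comparison shares the DDC hepatocyte libraries with the one above, so the values are set side by side and no overlap is drawn from them. Cyp2u1, at 28.7, 34.2 and 22.7 in DDC biliary cells, had the smallest adjusted p (-1.83 ± 0.21, adjusted p = 3.18e-05; -1.55 in reprogrammed cells). Cyp2d10, at 11.5, 30.9 and 14.4, changed by -2.32 ± 0.45 (adjusted p = 0.00131; -2.13 in reprogrammed cells), and Cyp3a11, at 7.5, 11.6 and 4.79, by -2.63 ± 0.77 (adjusted p = 0.0197; -2.54 in reprogrammed cells). DDC biliary library 2 was the highest of its group for all 3 genes, and it had the group's highest hepatocyte marker sum (598.7, against 378.1 and 439.9).

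Cyp2d26 reached the largest fall of the comparison, with 3.94, 5.24 and 6.45 against 85.8, 67.0 and 46.2 (-3.41 ± 1.09, adjusted p = 0.0314), but its call was lost whichever of the 6 libraries was left out (adjusted p 0.0591 to 0.0957). Cyp2c70, at 0.0, 1.16 and 0.782 against 6.4, 9.1 and 5.04, fell by 2.29 on the log2 scale (adjusted p = 0.00304). Cyp2w1, with 4.33, 5.82 and 4.2 against 29.5, 20.6 and 20.1 (-2.07 ± 0.40, adjusted p = 0.00134), and Cyp4f15, with 11.7, 20.8 and 10.7 against 55.5, 56.0 and 54.6 (-1.93 ± 0.36, adjusted p = 0.00118), had no overlap. Cyp2f2 (-2.07 ± 0.48), Cyp1a1 (-2.09 ± 0.51), Cyp4v3 (-1.09 ± 0.32), Cyp4f14 (-1.05 ± 0.36) and Cyp2c23, an arachidonic acid epoxygenase gene (-1.29 ± 0.39), were lower too.

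Higher in DDC biliary cells were Cyp1b1, Cyp2s1 and 4 genes with few reads. Cyp2s1 had 99.8, 83.9 and 78.6 nuclear RPM in DDC biliary cells and 47.4, 35.4 and 39.4 in DDC hepatocytes (1.09 ± 0.22, adjusted p = 0.00192). Cyp1b1 had 48.4, 40.4 and 48.3 against 25.2, 19.6 and 21 (1.03 ± 0.31, adjusted p = 0.024). For both genes every biliary library exceeded every hepatocyte library. Read ratios of the other 4 were 14.1 for Cyp2b9 (129 reads against 2; 95% counting interval 3.82 to 117), 12.2 for Cyp2j12 (168 against 3; 4.11 to 59.8), 7.85 for Cyp4a29 (108 against 3; 2.62 to 38.7) and 4.51 for Cyp2c65 (62 against 3; 1.47 to 22.5). Cyp2b9 reached the filter on low values mainly through DDC biliary cells (mean 4.67, and 1.49 over all libraries). Cyp4a29 had a log2 change of 0.00 after thinning. Of the 21 calls, 10 passed in all 6 fits without 1 library and all 21 kept their direction. Cyp1b1, Cyp2c23, Cyp2c65, Cyp2d34, Cyp3a11, Cyp4f14 and Cyp4v3 passed in only 2 of the 6 and Cyp4a29 in only 1. In number, 12 calls remained without DDC hepatocyte library 2 or DDC biliary library 1 and 10 without DDC biliary library 3. A fit without untreated hepatocytes called 32, 8 higher and 24 lower, with all 21 among them, while 24.5% of all genes were higher there and 19% lower.

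Reprogrammed cells against DDC biliary cells gave no member call: 0 of 45 by limma, beside 0.0184% higher and 0.00615% lower of all genes tested. An unadjusted p under 0.05 was reached by 2 members and by 874 of all 16267 genes. The members' median was 0.01 and that of all genes 0.05. Cyp2s1 lay at 50.9, 35.7 and 53.6 in reprogrammed cells, below the 99.8, 83.9 and 78.6 of DDC biliary cells in every library (-0.90 ± 0.22, adjusted p = 0.261), and it was the 1 member called lower by edgeR, by the fit of these 2 groups alone and by the fit without untreated hepatocytes (adjusted p = 0.012 there). Against DDC hepatocytes its change in reprogrammed cells was 0.18 ± 0.22 (adjusted p = 0.666). Differences between reprogrammed and DDC biliary cells were 0.20 ± 0.45 for Cyp2d10, 0.10 ± 0.77 for Cyp3a11 and 0.42 ± 0.31 for Cyp1b1 (limma, adjusted p = 1 for each); these standard errors leave room for changes in either direction, and a p above the threshold does not show that the levels were alike.

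Few members were called between DDC and untreated cells of the same type, which does not show that DDC left the others unchanged. In hepatocytes 1 of 45 genes was higher and 1 lower after DDC, against 9.65% higher and 3.92% lower of all genes. Cyp3a13 had 32.9, 37.3 and 31.9 nuclear RPM in DDC hepatocytes and 9.92, 6.61 and 8.52 in untreated ones (1.92 ± 0.36, adjusted p = 0.00409), far apart and with passes in all 6 fits without 1 library. Cyp2j5, an epoxygenase gene of liver and kidney, had 40.1, 46 and 48.7 against 69.4, 92.5 and 149.0 (-1.12 ± 0.29, adjusted p = 0.0224); it did not pass without untreated hepatocyte library 3 (adjusted p = 0.0507) or DDC hepatocyte library 1 (0.0881) or 2 (0.0603). Among other members of groups that foreign compounds induce, Cyp2b10, Cyp1a1 and Cyp3a11 did not pass. Cyp2b10 had 78.1, 67.5 and 47.8 against 39.7, 47.9 and 12.8 (1.09 ± 0.40, adjusted p = 0.0776), Cyp1a1 changed by 0.35 ± 0.51 and Cyp3a11 by 0.29 ± 0.77. The calls of Cyp3a13 and Cyp2j5 were also made by edgeR. The fit of these 2 groups alone made neither, and it called 0% of all genes. On the deposited scale 28 were higher and 0 lower, where 84.6% of all genes were higher and 0.0873% lower. The count of members was 6 without untreated hepatocyte library 1 (18.5% of all genes called in that fit), 7 without library 2 (27.9% of all genes) and 1 without library 3, DDC hepatocyte library 1 or DDC hepatocyte library 2.

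In biliary cells 1 of 45 genes was higher after DDC and 0 lower, with 2.23% higher and 1.08% lower of all genes. An unadjusted p under 0.05 by limma was reached by 9 of the 45 members and by 2741 of all 16267 genes. Cyp2b9, a close relative of Cyp2b10, had 3.56, 2.91 and 7.52 nuclear RPM in DDC biliary cells and no read in any of the 3 untreated biliary libraries. Its mean over all libraries was 1.49 nuclear RPM, not far above the filter of 1. DDC biliary cells averaged 4.67, reprogrammed cells 2.24, DDC hepatocytes 0.56 and both untreated groups 0.0. Its entry into the test thus depended mainly on the group in which it was called higher. With 129 reads against 0 it was at least 15.8-fold higher (limit of 3 reads over the group), and limma gave 2.42 ± 0.50 (adjusted p = 0.0154). That call did not hold without DDC biliary library 1 (adjusted p = 0.0808) or 3 (0.106), nor without untreated biliary library 2 (0.0657) or 3 (0.0783), and its only region lies 23.2 kb from the gene's start. A fit without untreated hepatocytes called 9 members: Cyp2b9, Cyp1b1 (0.86 ± 0.21, adjusted p = 0.00764), Cyp2s1 (0.67 ± 0.18, adjusted p = 0.014), Cyp4b1, Cyp2g1 and Cyp2d40 higher, and Cyp4f15 (-1.06 ± 0.23, adjusted p = 0.00312), Cyp4f14 and Cyp2j5 lower. In that fit 9.9% of all genes were higher and 6.9% lower, so the members' share of calls was near that of all genes. edgeR called 7 of these 9, without Cyp2d40 and Cyp4f14 (10.5% higher and 5.34% lower of all genes). For Cyp1b1, with 48.4, 40.4 and 48.3 against 27.2, 22.1 and 24.8, and for Cyp2s1, with 99.8, 83.9 and 78.6 against 58.2, 50 and 54.7, all DDC libraries exceeded all untreated ones. The difference between the DDC effects in the 2 cell types passed for 0 members by limma and 0 by edgeR. By limma 1.04% of all genes were higher and 1.73% lower. For that difference 4 members and 3175 of all 16267 genes had an unadjusted p under 0.05 by limma.

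Region by region, the summed levels of several members hid changes of different sign or strength. Of the 146 regions, 128 were tested. In untreated biliary cells against untreated hepatocytes 16 were higher and 26 lower (22.1% and 10.9% of all regions), in reprogrammed cells against DDC hepatocytes 5 and 14 (8.14% and 6.06%), and in DDC biliary cells against DDC hepatocytes 13 and 33 (16.4% and 12.1%). DDC gave 8 higher and 1 lower in hepatocytes (9.94% and 2.2%) and 3 higher and 0 lower in biliary cells (2.92% and 0.545%). Between reprogrammed and DDC biliary cells 0 member regions passed, as did 0 of all 79075. There 7 member regions had an unadjusted p under 0.05 and edgeR called 1, for which shares of all regions were not computed.

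Cyp2b10 had 8 regions. The promoter region shown above, chr7:25896679-25897723, lost accessibility outside hepatocytes: 10.5 ± 2.41 nuclear RPM in untreated hepatocytes and 14.0 ± 3.28 in DDC hepatocytes (SD, n = 3), but 1.98 ± 0.568 in reprogrammed, 1.49 ± 1.0 in DDC biliary and 1.3 ± 1.5 in untreated biliary cells. It fell by 2.32 ± 0.51 on the log2 scale in reprogrammed cells (adjusted p = 0.00941), although the summed level of the gene did not pass. A region 20.9 kb upstream, chr7:25876447-25877100, moved the opposite way, with no read in untreated hepatocytes and 4.12 in reprogrammed cells (2.03 ± 0.42 against DDC hepatocytes, adjusted p = 0.0072). Another, inside the gene body (chr7:25901883-25904922), averaged 17 ± 8.8 in DDC biliary cells and 3.31 to 6.72 elsewhere.

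At Cyp2s1 the promoter region (chr7:25813787-25817149) went from 3.97 ± 1.27 nuclear RPM in DDC hepatocytes to 17.2 ± 5.73 in reprogrammed cells (1.85 ± 0.44, adjusted p = 0.0132) and 35.6 ± 10.3 in DDC biliary cells (2.87 ± 0.44, adjusted p = 0.000461). Reprogrammed cells thus passed against DDC hepatocytes at this promoter, while the summed level of the gene did not pass. The sum also held a region 21.3 kb upstream (chr7:25837518-25838178) that had 9.24 ± 3.81 in DDC hepatocytes and 0.551 to 1.18 in all other groups. That region was higher in DDC than in untreated hepatocytes (2.81 ± 0.51, adjusted p = 0.00254) and lower in reprogrammed cells than in DDC hepatocytes (adjusted p = 0.0109). Yet another region, 4.3 kb inside the gene, had no read in either hepatocyte group and was higher in DDC than in untreated biliary cells (5.21 against 0.792 nuclear RPM; 1.84 ± 0.39, adjusted p = 0.0181).

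**Figure D5:**
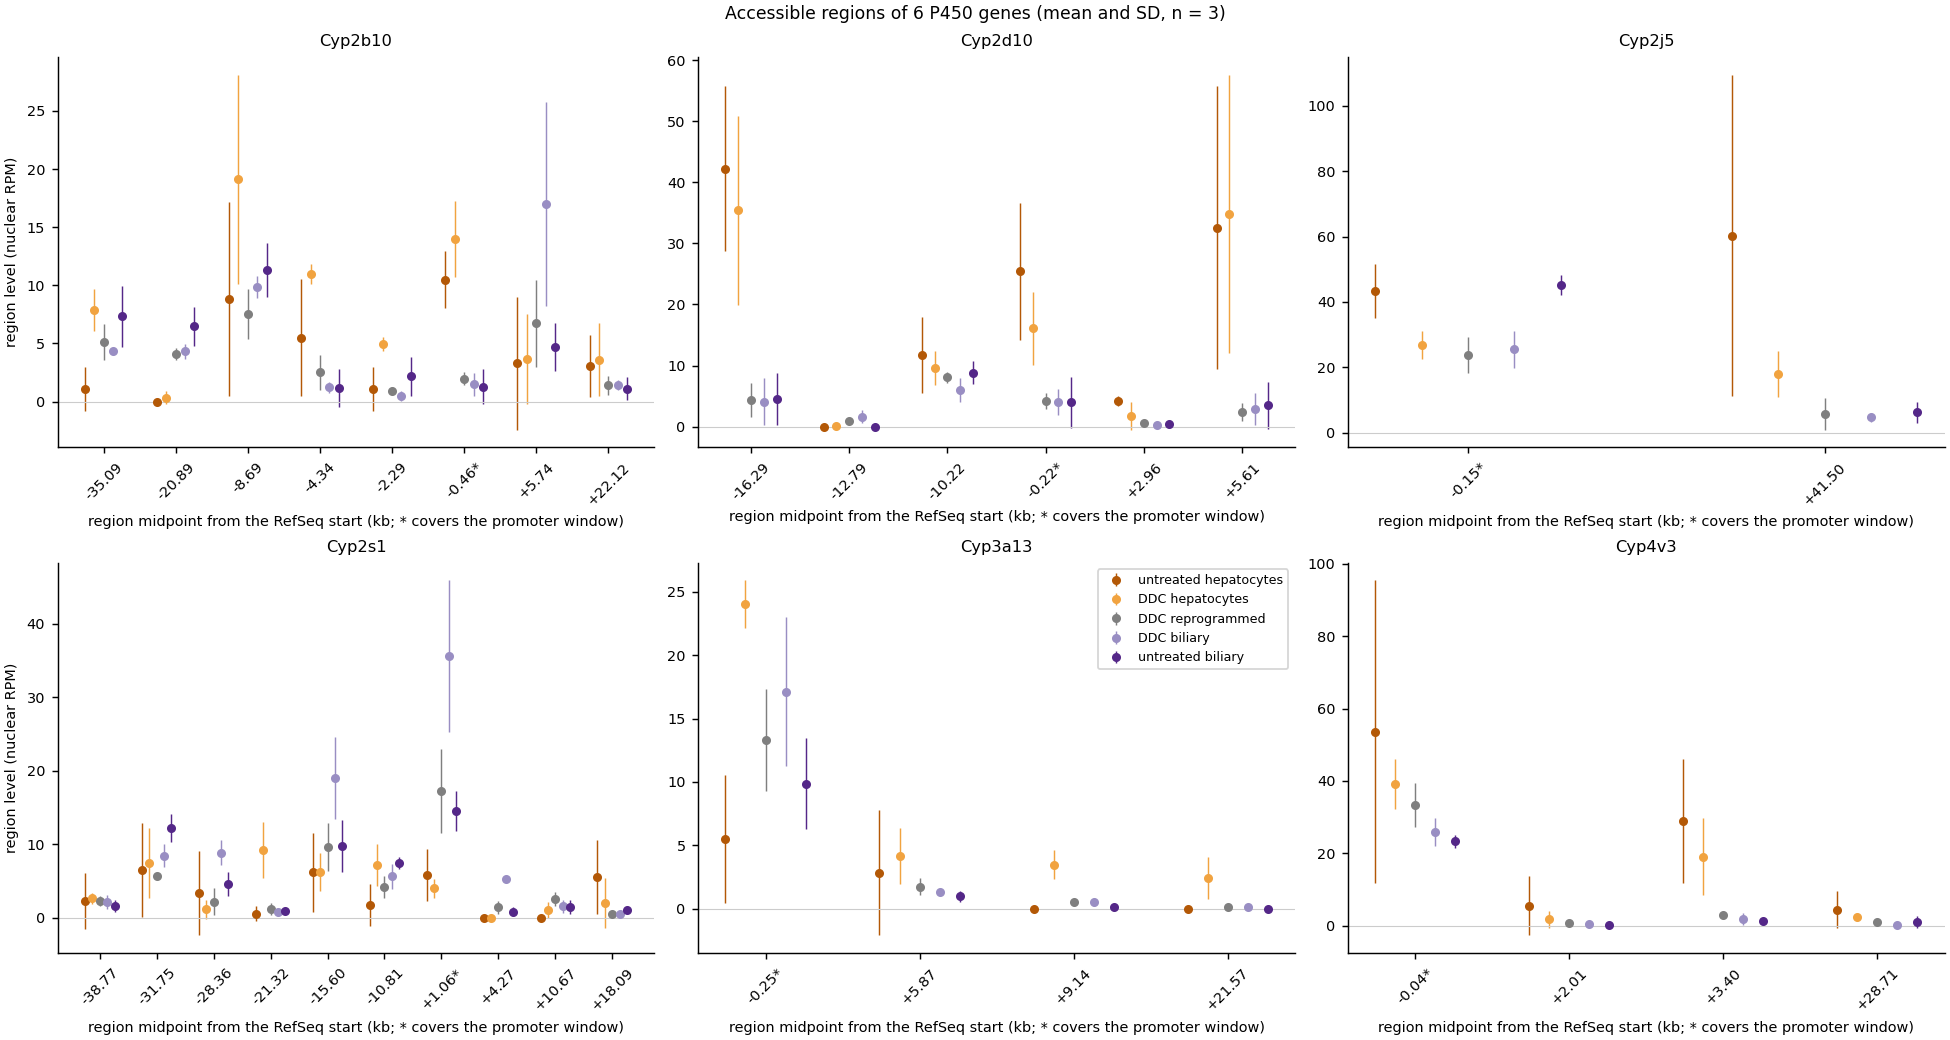
Mean accessibility (y axis, nuclear RPM; bar, SD, n = 3) of each region of 6 P450 genes in the 5 cell groups (colours), ordered by distance of the region's midpoint from the RefSeq start (x axis, kb; * covers the promoter window). The promoter region of Cyp2s1 is highest in DDC biliary cells while that of Cyp2b10 is highest in hepatocytes, and Cyp4v3 and Cyp2j5 each have a region away from the promoter that is highest in untreated hepatocytes.

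At Cyp4v3 and Cyp2j5 a region away from the promoter passed while the promoter region did not. The promoter region of Cyp4v3 averaged 53.6 ± 41.8, 39.1 ± 6.97, 33.3 ± 6.14, 25.8 ± 3.83 and 23.3 ± 1.88 in untreated hepatocytes, DDC hepatocytes, reprogrammed, DDC biliary and untreated biliary cells. Its means stood in the same order of groups as those of the gene, and no comparison passed (-0.81 ± 0.46 between the untreated groups, adjusted p = 0.187). A region 3.4 kb into the gene (chr8:45329153-45330364) averaged 29.0 ± 17.1 and 19.1 ± 10.7 in the 2 hepatocyte groups and 1.19 to 3.09 in the others (-3.7 ± 0.66 in untreated biliary cells, adjusted p = 0.000591; -2.1 ± 0.66 in reprogrammed cells, adjusted p = 0.0436). Cyp2j5 had a promoter region at 43.3 in untreated hepatocytes and 45.2 in untreated biliary cells, beside one 41.5 kb downstream of the start at 60.3 ± 49.1 against 6.33 (-2.82 ± 0.63, adjusted p = 0.00296). At Cyp2d10 promoter and distal regions fell in untreated biliary cells: the promoter region (chr15:82406635-82408201) averaged 25.4 ± 11.2 in untreated hepatocytes and 3.96 ± 4.12 in untreated biliary cells (-2.65 ± 0.57, adjusted p = 0.00221). The regions at chr15:82399493-82403667 and chr15:82422929-82424039 fell there by 2.9 ± 0.75 and 3.2 ± 0.62 on the log2 scale (adjusted p = 0.00711 and 0.00111). In reprogrammed cells against DDC hepatocytes those 2 distal regions fell too (-3.31 ± 0.75 and -2.8 ± 0.62, adjusted p = 0.0103 and 0.0096), whereas the promoter region, at 16.1 ± 5.98 in DDC hepatocytes and 4.2 ± 1.31 in reprogrammed cells, did not pass (-1.69 ± 0.57, adjusted p = 0.0579). Another region, chr15:82417011-82417819, passed in neither comparison (-0.24 ± 0.45 and -0.2 ± 0.45).

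The DDC response of Cyp3a13 sat at its promoter (chr5:137921211-137922529), with 5.51 ± 5.05 in untreated and 24 ± 1.89 in DDC hepatocytes (2.51 ± 0.66, adjusted p = 0.0207). The promoter region of Cyp3a11, which carries the HNF4A match, averaged 28.1 ± 13.4 in DDC hepatocytes and 3.75 in DDC biliary cells (-2.52 ± 0.9, adjusted p = 0.0465). That region passed neither in reprogrammed cells against DDC hepatocytes (-2.09 ± 0.9, adjusted p = 0.131) nor between the untreated groups (-0.43 ± 0.9, adjusted p = 0.755), both comparisons in which the gene's summed level fell. Cyp1b1 gained a region 40.3 kb upstream (chr17:79754818-79755906) that had no read in untreated hepatocytes, 0.844 in DDC hepatocytes, 8.36 ± 4.01 in reprogrammed cells and 6.78 ± 1.5 in DDC biliary cells (2.35 ± 0.5 in reprogrammed cells against DDC hepatocytes, adjusted p = 0.00803). At Cyp2d40 the promoter region fell (19.3 in DDC hepatocytes, 2.66 in reprogrammed cells; -2.43 ± 0.69, adjusted p = 0.0292), whereas a region 38.1 kb outside the gene (chr15:82721397-82722050) had no read in either hepatocyte group and 6.14 ± 0.561 in DDC biliary cells, more than the 0.829 of untreated biliary cells (1.96 ± 0.43, adjusted p = 0.0207). Cyp4f39, a hydroxylase gene of skin lipids and the Cyp4f gene with the highest level, had 79.3, 57.8 and 63.9 nuclear RPM in untreated hepatocytes and 51, 42.2 and 38.3 in untreated biliary cells (-0.60 ± 0.19, adjusted p = 0.0196). With only regions within 1 kb of its ends counted, it was higher in biliary cells (1.94 ± 0.54, adjusted p = 0.0122). The same restriction turned Cyp2f2 from -2.30 to 0.38.

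Promoter letters were compared over the 38 members with a RefSeq promoter entry (250 bases before to 50 after the start) and 17491 genes with one. The HNF4A letters CAAAGTCCA were in 3 members' promoters (7.89%; Cyp2c65, Cyp2c70 and Cyp3a11) and in 0.52% of all. The TATA box letters were in 12 (31.6%, against 14.8%), those of C/EBP in 8 (21.1%, against 11.7%), those of AP-1 in 5 (13.2%, against 8.12%) and the Ahr response element in 11 (28.9%, against 41.4%). Among the 12 with the TATA box letters were 5 Cyp2d genes. The median CpG count was 3 per window for members and 13 for all genes. These are letter matches only and no test was made of them.

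Genes that work with these enzymes were counted in lists of their own. Of 20 regulators of P450 genes, 13 were lower and 0 higher in untreated biliary cells than in untreated hepatocytes, 8 and 0 in reprogrammed cells against DDC hepatocytes, and 12 and 0 in DDC biliary cells against DDC hepatocytes (median log2 change -0.62, -0.50 and -0.64). Of all genes, 13.5%, 6.42% and 11.8% were lower and 25.4%, 7.8% and 12.7% higher in these 3 comparisons. Hnf4a, the nuclear receptor that maintains the hepatocyte programme, had 406.0, 394.1 and 309.7 nuclear RPM in DDC hepatocytes, 167.3, 142.2 and 177.8 in reprogrammed cells and 66.5, 95.7 and 76.1 in DDC biliary cells, with no overlap between any of the 3. It fell by 1.18 ± 0.33 on the log2 scale in reprogrammed cells (adjusted p = 0.026), and its difference between reprogrammed and DDC biliary cells did not pass (1.03 ± 0.33, adjusted p = 0.48). Nr1i2, encoding PXR, had 235.6, 300.2 and 171.2 against 90.2, 64.8 and 95.2 in reprogrammed cells (-1.47 ± 0.29, adjusted p = 0.00375), and Nr1i3, encoding CAR, 9.39, 26.3 and 15.9 against 1.75, 1.63 and 3.36 (-2.42 ± 0.64, adjusted p = 0.0198). Ahr changed by -0.36 ± 0.16 there and did not pass (adjusted p = 0.162).

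Of the 5 electron donors and partners, 3 were lower and 0 higher in reprogrammed cells, where 6.42% of all genes were lower and 7.8% higher. The all-gene shares given for the regulators apply to each list below in the same comparisons. Por had 465.7, 433.8 and 256.8 in DDC hepatocytes and 203.8, 219.8 and 209.2 in reprogrammed cells (-0.82 ± 0.24, adjusted p = 0.0303). It did not pass between the untreated groups (-0.42 ± 0.24, adjusted p = 0.165), where 2 of the 5 were lower. Conjugating enzymes and efflux pumps were lower for 10 of 20 in untreated biliary cells (1 higher, Tpmt), for 6 of 20 in reprogrammed cells and for 9 of 20 in DDC biliary cells, the largest fall among reprogrammed cells being at Abcc2, the canalicular export pump (-2.29 ± 0.49, adjusted p = 0.00637). P450 genes of other families were more mixed: 3 of 16 fell and 1 rose in reprogrammed cells, with Cyp7a1, the rate-limiting enzyme of bile acid synthesis, at -2.53 ± 0.38 (adjusted p = 0.000736) and Cyp11a1, the first enzyme of steroid synthesis, at 2.39 ± 0.58 (adjusted p = 0.0124). In these same comparisons hepatocyte markers were lower for 7 of 7 in untreated biliary cells and for 6 of 7 in both reprogrammed and DDC biliary cells against DDC hepatocytes, and biliary markers were higher for 7, 7 and 8 of 8. Endothelial, lymphocyte, macrophage and stellate markers with a region numbered 6, 4, 3 and 6 genes, and their sums in any library stayed at or below 264.9 nuclear RPM. Stellate marker sums were 110.7 to 145.4 in untreated hepatocytes, 126.4 to 174.6 in DDC hepatocytes, 240.3 to 264.9 in reprogrammed cells, 206.2 to 235.1 in DDC biliary cells and 182.5 to 210.0 in untreated biliary cells. Lymphocyte sums were 47.9 to 79.3 in untreated hepatocytes, above the 11.2 to 37.8 of all other libraries, and macrophage sums were 57.8 to 85.2 there, below the 92.4 to 163.7 of all others. Endothelial sums were 104.1 to 133.8 in untreated hepatocytes, 142.7 to 168.6 in DDC hepatocytes, 102.7 to 163.6 over reprogrammed and DDC biliary cells and 70.4 to 91.4 in untreated biliary cells. The part of these cells in the results was not tested.

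By limma in the fit of all libraries, 17 of the 45 tested members passed in no comparison, Cyp2b10 among them. Of these 17, 9 were called in at least 1 comparison by edgeR or by the fit without untreated hepatocytes: Cyp2b10, Cyp2b13, Cyp2b19, Cyp2d22, Cyp2g1, Cyp2j13, Cyp4a14, Cyp4b1 and Cyp4f37. Shares of all genes were not computed for either count. In a single comparison edgeR called up to 39.2% of all genes and the fit without untreated hepatocytes up to 43.4%, so neither count is read as a trait of the members. In the chromosome 7 group Cyp2b13, Cyp2b19 and Cyp2g1 averaged 4.03, 18.7 and 1.54 nuclear RPM over the 15 libraries. Cyp2c55, Cyp2d22, Cyp2j6, Cyp2j9, Cyp2j13, Cyp4a14, Cyp4b1 and Cyp4x1 also belong to the 17, as do Cyp4f13, Cyp4f17, Cyp4f18, Cyp4f37 and Cyp4f40. Cyp2d22, often taken as the mouse counterpart of CYP2D6, had 49.6, 67.7 and 51.1 in untreated hepatocytes, 44.8, 62.7 and 35.3 in DDC hepatocytes, 32.1, 29.7 and 38.9 in reprogrammed cells, 32.1, 39.6 and 50 in DDC biliary cells and 48.4, 30.7 and 31.2 in untreated biliary cells. Its groups overlapped except that reprogrammed and untreated biliary cells did not reach the range of untreated hepatocytes. Many members stand in clusters of near-identical copies, and the handling of reads with several matching places is not given in those sources, so levels of single genes within the Cyp2b, Cyp2c, Cyp2d, Cyp3a and Cyp4f clusters, and the assignment of a region to the nearest of them, are uncertain.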

How the data were processed

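Chromatin accessibility was measured by ATAC-seq in 15 mouse liver libraries, grouped by their labels. The mm10 build and the tools Bowtie2, MACS2, SAMtools and bedtools are named per the submitters' processing notes; versions, settings, duplicate handling and the merging of regions are not stated there. The deposited values are named TPM but are RPM (reads scaled per 1000000): as the authors deposited them, 100% of values up to 100 reads were whole multiples of the value of 1 read (tolerance 0.02), with no division by region length, and whole reads could be recovered. The step of reprogrammed library 1 lies near a power of 10, so its pattern is weaker evidence. The tests had been planned for TPM and fit RPM as well.

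Both mitochondrial regions were dropped, each column was rescaled to 1000000, and 80377 regions (86.2%; width 179 to 48527 bp, median 706) were given to the RefSeq protein-coding gene that held their midpoint, or else to the nearest within 50 kb, and summed. limma (version 3.58.1, R 4.3.3) with a trend was fitted to log2(nuclear RPM + 1) of genes (16267) or regions (79075) with a mean of 1 or more, all 15 libraries in 1 fit, with Benjamini-Hochberg adjustment over all of them and a threshold of 0.05. Changes are on that log2 scale, which shrinks those of genes low in every library. A library without a read pulls its group down there, so changes against the shallow untreated hepatocytes can be overstated. Cyp2d26 averaged 39.7 in untreated hepatocytes (1 library at 0.0) and 66.3 in DDC hepatocytes, yet changed by 2.22 on the log2 scale. The all-gene median between the untreated groups was 0.32 by limma and 0.08 by edgeR. Both this test and edgeR (version 4.0.16) on recovered reads were run on simulated data. The simulation gave all genes and libraries the same spread beyond counting noise, which real libraries need not have, so it does not vouch for the calls here. The calls of edgeR are given beside those of limma. Alternatives were the deposited scale, a pseudocount of 4, no filter, a replicate block, only the groups compared, thinning, edgeR, another assignment, regions within 1 kb of a gene end and leaving out each library; TMM scaling and a fit without untreated hepatocytes were chosen after seeing the data. Counting intervals of read ratios are exact binomial. Every pair of replicates was further apart than sampling noise allows (chi-square divided by its degrees of freedom, 2.18 to 7.46), so no 2 were merged as repeat deposits of 1 library; this does not show that they came from separate animals.

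In each subfamily group the gene with the highest mean and, per comparison, the called gene with the largest change were described by library; other genes and regions were chosen for description after their values were seen. The members and lists were chosen with earlier results of these data known. Files were read in R with data.table (version 1.17.8). Summaries and plots used Python 3.11.15, numpy 2.4.6, pandas 2.3.3, scipy 1.17.1 and matplotlib 3.10.9.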

Additional observations from a re-analysis of the deposited data

How the results depend on the processing

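Depth limits every statement on untreated hepatocytes, where 1 read is worth up to 4.958 nuclear RPM. Counts below are of P450 genes or regions called, in the order untreated biliary against untreated hepatocytes, DDC against untreated hepatocytes, DDC against untreated biliary cells, reprogrammed cells against DDC hepatocytes, reprogrammed against DDC biliary cells, DDC biliary cells against DDC hepatocytes, and for genes the difference of the DDC effects. As reported they were 21, 2, 1, 12, 0, 21 and 0 genes and 42, 9, 3, 19, 0 and 46 regions. Of all genes tested, 39, 13.6, 3.31, 14.2, 0.0246, 24.5 and 2.77% were called in that order. Shares of all regions were not computed for the other settings, so region counts there have no background beside them. The cause of each change below was not tested.

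On the deposited scale, which keeps mitochondrial reads in the total, the counts were 25, 28, 2, 14, 0, 19 and 14 genes. Of all genes, 86.8, 84.7, 3.09, 24.7, 0.0125, 30 and 63.3% were called on that scale. Regions called there numbered 49 for DDC against untreated hepatocytes, 9 for DDC against untreated biliary cells and 40 for reprogrammed cells against DDC hepatocytes. That scale moved the median change of all genes from 0.32 to 1.91 between the untreated groups, from 0.21 to 1.54 between DDC and untreated hepatocytes, and from 0.12 to 0.55 and from 0.07 to 0.5 in reprogrammed and DDC biliary cells against DDC hepatocytes, and it reversed Cyp4v3 (0.14) and Cyp2u1 (0.47) in untreated biliary cells and Cyp2j5 (0.44) in DDC hepatocytes. Fits restricted to the compared groups gave 9, 0, 10, 20, 1, 31 and 0 genes, beside 17.2, 0, 27.3, 26.9, 6.91, 39.7 and 1.05% of all genes. Regions were 24, 0, 14, 53 and 6 in the first 5 comparisons. After thinning as well, 4, 0, 0, 1, 0 and 6 genes were called, beside 4.24, 0, 0.645, 1.78, 0.141 and 6.72% of all genes. Cyp4a29 in DDC biliary cells against DDC hepatocytes was at 0.00 there. edgeR called 16, 2, 7, 23, 1, 28 and 0 genes, beside 29.5, 5.04, 15.8, 30.3, 2.94, 39.2 and 3.27% of all genes. Its regions numbered 3 in DDC against untreated hepatocytes and 11 in DDC against untreated biliary cells. They numbered 54 in reprogrammed cells against DDC hepatocytes and 1 in reprogrammed against DDC biliary cells. Counting only regions near a gene end (within 1 kb), 12, 1, 0, 1, 0 and 8 genes were called and Cyp2f2 reversed in untreated biliary cells (0.38). Of all genes, 36.8, 12, 0.404, 4.63, 0.0176 and 10.5% were called with that restriction. A fit without untreated hepatocytes called 9, 21, 1 and 32 genes in the 4 comparisons without that group, beside 16.8, 35, 1.76 and 43.4% of all genes. It called 11 and 59 regions in DDC against untreated biliary cells and in reprogrammed cells against DDC hepatocytes. A pseudocount of 4 called 3 genes in DDC against untreated hepatocytes (14.1% of all genes). TMM scaling, no filter and the other assignment stayed within 1.5 times of every gene count.

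Leaving out 1 library gave 13 to 23, 1 to 7, 0 to 1, 3 to 10, 0 to 0, 10 to 19 and 0 to 1 genes, and 29 to 55, 3 to 25, 0 to 3, 6 to 19, 0 to 0 and 23 to 38 regions. Shares of all genes called in those fits were 28.7 to 45.6, 5.06 to 27.9, 0.258 to 2.83, 6.32 to 11.3, 0 to 0.00615, 16.2 to 20.9 and 0.529 to 13.6%. The 57 gene calls all kept their direction in these fits, and 27 passed in each of them. Each fit reuses nearly all libraries that gave the calls, so a kept direction is little support. The share of calls among all genes that held in this way was not computed.

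With replicate numbers as a block (replicate block), 21, 2, 1, 12, 0, 22 and 0 genes were called, beside 39.7, 14.2, 3.39, 14.1, 0.0184, 24.9 and 2.81% of all genes. The labels tie the numbers to no animal or batch, and not every same-number pair of libraries had a correlation of deviations over 0.1, so the fit without the block was kept. Of 30 same-number pairs of libraries, 8 were over 0.1 (range -0.14 to 0.2, median 0.035), and among 60 pairs with different numbers 4 were. Among the 3 DDC groups alone all 9 same-number pairs were positive (0.03 to 0.2, 6 of them over 0.1), a hint of pairing from the data and not from the design. The 18 others ran from -0.17 to 0.04. Deviations cancel out within each group, so positive same-number values push the others down, and these 18 are not separate evidence.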
